A study of Mus musculus with 6 samples.

Results

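Galactose is brought into central metabolism by the Leloir pathway, and glycogen is built and broken down through the same intermediate, glucose 1-phosphate. The 9 genes described here encode enzymes of this junction and were taken by name from the 55401 genes of the deposited table. Galm, Galk1 and Galt act in the Leloir pathway, Pgm1 and Pgm2 are phosphoglucomutases, Ugp2 makes UDP-glucose, Gys1 and Gbe1 build glycogen, and Pygl degrades it. The set was put together around Galk1, which had already been called in the comparison below, so the values of its members between the groups are a description and support nothing further.

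The libraries came from bEnd.3 cells, a mouse endothelial line labelled WT. In the mitochondria group, 3 libraries were made 24 h after mitochondria were added in 100 ul of culture medium, isolated from the mouse line MLO-Y4, which resembles osteocytes. In the control group, 3 libraries were made from cells given the same amount of medium alone. All cells had been kept in high-glucose medium with serum, per the labels' protocols, and no galactose is named there. Whether the replicates were separate cultures is not labelled, so the p-values rest on a spread between libraries that may be technical.

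The libraries held 65394770 to 70407728 estimated counts in the mitochondria group and 65593638 to 73376834 in the control group. Of 10 endothelial markers, Flt1, Eng and Tie1 had a mean FPKM of at least 1, and Cldn5 had a count of 0 in every library. The summed level of these markers was 806.1 to 870.9 CPM in the mitochondria libraries and 742.8 to 794.1 CPM in the control libraries, without overlap. The markers did not move together. Of the 3 with a mean FPKM of at least 1, 2 were higher and 1 lower in every mitochondria library than in any control. Of all genes at that level, 10.8% were higher and 10.6% lower in this way. Transcripts of other tissues differed between libraries. The summed level of 10 pancreatic acinar markers was 0 to 0.188 CPM with mitochondria and 75.5 to 139.1 CPM in controls, without overlap. That of 8 hepatocyte markers was 0.286, 34.4 and 30.8 CPM with mitochondria and 33.6, 48.6 and 43.2 CPM in controls, so that the groups overlapped and mitochondria replicate 1 stood apart. Of 5 skeletal muscle markers, Myh1, Myh4 and Ckm had a count of 0 in every library. Summed levels of the remaining non-endothelial lists overlapped too, at 3.39 to 3.55 CPM with mitochondria and 2.31 to 4.08 CPM in controls for 6 osteocyte markers, of which Dmp1 and Mepe had a count of 0 throughout. They were 26.1 to 37.7 CPM and 19.8 to 33.8 CPM for 5 myeloid markers, and 84.0 to 123.4 CPM and 88.5 to 176.9 CPM for 5 mural cell markers.

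In the Leloir pathway galactose mutarotase, encoded by Galm, turns beta-galactose into the alpha form that galactokinase, encoded by Galk1, phosphorylates. Galt then exchanges galactose 1-phosphate with UDP-glucose and yields UDP-galactose and glucose 1-phosphate. Phosphoglucomutase joins glucose 1-phosphate to glucose 6-phosphate. Ugp2 turns glucose 1-phosphate into UDP-glucose, the substrate of glycogen synthase. In muscle and most other tissues glycogen synthase is encoded by Gys1, in liver by Gys2.

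Of the genes compared with Galk1, Pgm1 had the nearest pattern over the libraries, each gene taken relative to its own mean. The related mutase gene Pgm2 and the synthase gene Gys1 did not share that pattern. The 250 bases before the RefSeq start of Galk1, Pgm1, Pgm2 and Gys1 are therefore shown. They are RefSeq sequences of build GRCm38.p6, written 5′ to 3′ on the gene's strand. They stand at chr11:116012720-116012969 (minus strand) for Galk1, chr4:99929201-99929450 (plus strand) for Pgm1, chr5:64092689-64092938 (plus strand) for Pgm2 and chr7:45434589-45434838 (plus strand) for Gys1. Capitals mark ACGTG, a core form of the element bound by hypoxia-inducible factors, and GGGCGG, the GC box, on either strand.
Galk1: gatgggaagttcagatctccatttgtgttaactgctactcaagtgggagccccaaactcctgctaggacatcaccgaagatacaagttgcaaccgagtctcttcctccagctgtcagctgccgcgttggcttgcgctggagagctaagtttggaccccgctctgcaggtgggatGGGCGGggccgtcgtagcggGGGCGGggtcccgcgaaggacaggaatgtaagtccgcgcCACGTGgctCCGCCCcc
Pgm1: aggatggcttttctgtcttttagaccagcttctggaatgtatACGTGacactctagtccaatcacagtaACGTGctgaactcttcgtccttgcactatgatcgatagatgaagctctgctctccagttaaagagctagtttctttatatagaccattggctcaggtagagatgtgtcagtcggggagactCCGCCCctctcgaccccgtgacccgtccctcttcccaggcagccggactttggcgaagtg
Pgm2: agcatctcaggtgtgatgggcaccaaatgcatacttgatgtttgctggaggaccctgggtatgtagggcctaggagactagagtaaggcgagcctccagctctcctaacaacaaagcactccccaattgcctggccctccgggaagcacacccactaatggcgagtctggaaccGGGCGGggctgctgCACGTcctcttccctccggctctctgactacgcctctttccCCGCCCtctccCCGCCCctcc
Gys1: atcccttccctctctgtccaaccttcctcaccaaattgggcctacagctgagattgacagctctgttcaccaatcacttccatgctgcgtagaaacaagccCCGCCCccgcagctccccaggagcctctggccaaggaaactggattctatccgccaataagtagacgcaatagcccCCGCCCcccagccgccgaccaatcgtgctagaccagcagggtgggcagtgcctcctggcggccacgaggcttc

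The Galk1 window held, near its end, a CACGTG that began 17 bases before the start and holds ACGTG on both strands, and it had 3 GC boxes. The Pgm1 window had ACGTG at 208 and 181 bases before the start and 1 GC box, and the Pgm2 window had ACGTG on the opposite strand at 62 bases and 3 GC boxes. The Gys1 window had 2 GC boxes and no ACGTG. RefSeq promoters were listed for 8 of the 9 genes, all but Galm, in 10 windows. ACGTG was found in 6 of the 10 windows and the GC box in 8. The hexamer CACGTG was found in 2 windows, those of Galk1 and of 1 of the 2 Galt starts, and TATAAA in 1 window, that of Pgm1. Of all 32851 promoter windows of this length, 16.6% held ACGTG, 32.7% GGGCGG, 6.02% CACGTG and 12.4% TATAAA, on either strand. Among the 19214 windows with a GC content between the lowest and highest of the members, 48.8% to 73.6%, the shares were 19.7%, 45.5%, 7.6% and 5.89%. These matches describe the letters of the windows only.

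Levels of different genes were compared as FPKM, the deposited value per length and library size. Ugp2 had the highest level, with a median of 103.3 FPKM over the 6 libraries and a range of 83.7 to 124.4. Galk1 followed at 64.6 FPKM (52.5 to 74.0) and Pgm1 at 56.5 FPKM (45.6 to 65.5). The ranges of this pair overlapped, though within each library Galk1 stood above Pgm1. Gys1 stood at 23.0 FPKM (17.5 to 31.7). Galm at 15.8 FPKM (14.4 to 16.7) and Gbe1 at 14.4 FPKM (12.2 to 16.9) overlapped each other, and Gbe1 did not reach the lowest library of Gys1. Pgm2 had 11.2 FPKM (10.6 to 12.1), all below the lowest Gbe1 value, and Galt 3.71 FPKM (3.57 to 3.95). Pygl was at or below 0.0149 FPKM in every library. The members thus covered a wide range, with the UDP-glucose enzyme at the top and the uridylyltransferase lowest among those clearly expressed.

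**Figure D1:**
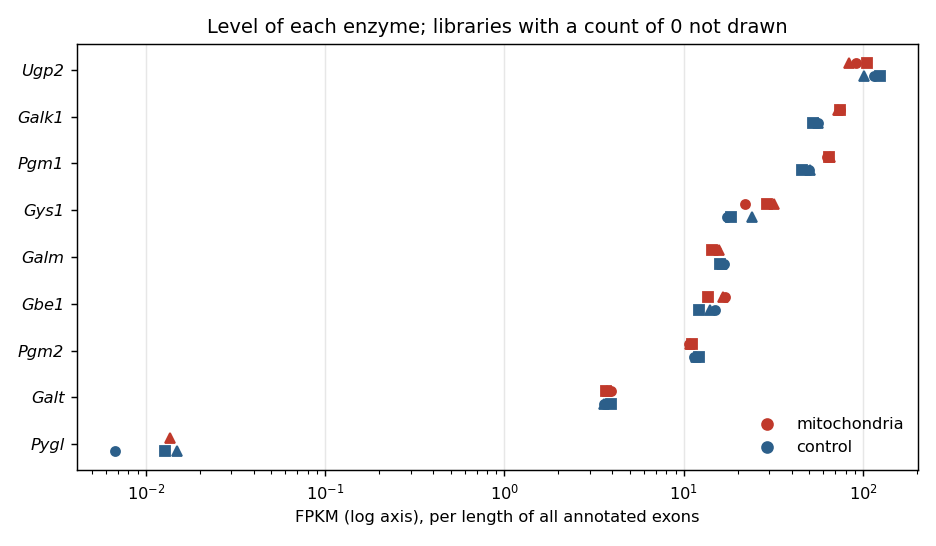
FPKM of the 9 enzymes on a log axis, 1 point for each library, with mitochondria libraries in red above control libraries in blue and marker shapes for replicates 1 (circle), 2 (square) and 3 (triangle). Ugp2 lies highest, Galk1 and Pgm1 follow with separate groups, and Pygl lies at or below 0.0149 FPKM, with 2 mitochondria libraries at a count of 0 not drawn.

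These levels depend on the length used. In all 44 listed genes above 0.5 FPKM in every library, the length implied by count and FPKM lay within 1% of the summed length of all annotated exons of the gene, which is over 10% more than the longest transcript in 32 of them. Galk1 has only 1 transcript, of 8 exons and 1406 bases, so its level is not touched, whereas Gys1 was divided by 4789 bases against 3678 in its longest transcript and Gbe1 by 5352 against 3734. With CPM per kilobase of the longest transcript, Galk1 and Pgm1 had medians of 72.8 and 73.9, and Gbe1, at 23.5, stood above Galm, at 19.1. The other places in the order were unchanged, with Ugp2 at 133.6, Gys1 at 33.8, Pgm2 at 13.9 and Galt at 5.59.

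Of the 3 Leloir genes, Galk1 was higher with mitochondria, Galt stood at about the same level in both groups and Galm was slightly lower, and of these genes only Galk1 passed the test. Galk1 (ENSMUSG00000020766, minus strand of chromosome 11, 116008457 to 116012719 in GRCm38) had 117.3, 117.3 and 114.8 CPM in the mitochondria libraries, against 90.0, 83.9 and 89.8 CPM in the control libraries. CPM are estimated counts scaled to a common library size with TMM factors. The groups did not overlap, and the mitochondria libraries lay closer together than the controls, at 116.5 ± 1.43 and 87.9 ± 3.46 CPM (SD, n = 3 each). The fitted fold was 1.33, with a 95% interval of 1.23 to 1.43 and a log2 fold change of 0.41 ± 0.046 (SE). This was the only member past the threshold of edgeR's quasi-likelihood test, with an adjusted p of 0.0483 over the 12774 genes with a mean FPKM of at least 1, and that call chose it. Of the 8 members tested 1 was called higher and 0 lower, where 0.164% of all genes were called, 0.0626% higher and 0.102% lower, and nothing is read from this since the choice of Galk1 fixes it. Of the 8 members 5 were above 0 and 3 below, with log2 fold changes from -0.30 to 0.45 and a median of 0.11, and 4 had an unadjusted edgeR p under 0.05, as did 13.0% of all genes. In these bulk libraries more cells that express a gene and more of its RNA in each cell cannot be told apart. With the replicate number as a block the adjusted p was 0.186, and it lay between 0.0791 and 0.166 when any single library was left out, with the log2 fold change at 0.37 to 0.43. No other gene in the table overlaps Galk1.

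Galt (ENSMUSG00000036073, chromosome 4, 41755228 to 41758695) had 11.1, 10.3 and 10.5 CPM with mitochondria and 10.1, 11.1 and 10.1 CPM in controls. The groups overlapped and the fitted fold was 1.02 (95% interval 0.877 to 1.18, edgeR adjusted p = 0.92). The whole of Galt lies within the span of Il11ra1 on the same strand. Reads shared with it cannot be told apart here, and Il11ra1 had a log2 fold change of -0.042. Per length, Galk1 was 18.7, 20.1 and 19.5 times the level of Galt in the mitochondria libraries and 15.8, 13.4 and 15.7 times in the control libraries, on the FPKM scale. The Galk1 transcript was thus far more abundant than that of the next enzyme in every library. The size of the ratio depends on length, since Galt was divided by 2471 bases against 1859 in its longest transcript. Per kilobase of the longest transcript the medians were 72.8 CPM for Galk1 and 5.59 CPM for Galt. The ratio did not overlap between the groups, but Galk1 was chosen for its difference between them, so nothing is read from this.

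Galm (ENSMUSG00000035473, chromosome 17, 80127471 to 80185101) had 42.3, 40.1 and 43.9 CPM with mitochondria and 47.1, 44.7 and 45.9 CPM in controls. All 3 mitochondria libraries lay below the controls, by little, with a fitted fold of 0.917 (95% interval 0.835 to 1.01, edgeR adjusted p = 0.419).

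Galk2, whose product mainly phosphorylates N-acetylgalactosamine despite its name, had 91.0, 80.9 and 92.7 CPM with mitochondria and 78.7, 82.9 and 82.6 CPM in controls, with overlapping groups and a fitted fold of 1.08 (95% interval 0.974 to 1.21, edgeR adjusted p = 0.494). Of the summed FPKM of Galk1 and Galk2, Galk1 made up 85.1% ± 1.02 with mitochondria and 82.4% ± 0.891 in controls (SD, n = 3 each). Galk1 was chosen for its difference between the groups, so nothing is read from the difference between its shares. Per kilobase of the longest transcript these shares were 73.2% and 69.1%, because Galk2 is spread over 6088 annotated exon bases with a longest transcript of 2910. Akr1b3, aldose reductase, which can reduce galactose to galactitol, had 219.9 ± 2.81 CPM with mitochondria and 236.8 ± 4.48 CPM in controls (SD, n = 3 each). Its fitted fold was 0.929 (edgeR adjusted p = 0.322).

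**Figure D2:**
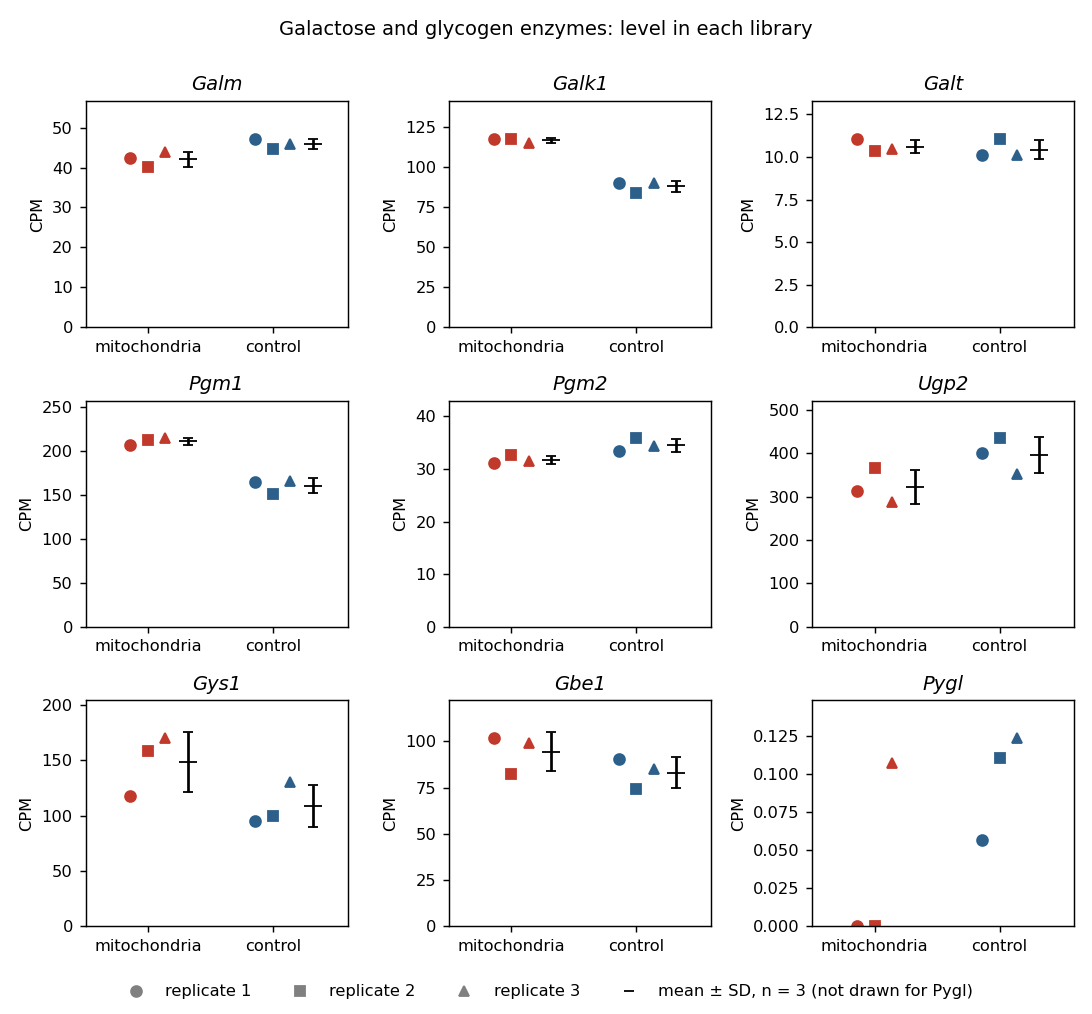
CPM of each of the 9 enzymes in the 3 mitochondria libraries (red) and the 3 control libraries (blue), each panel on its own axis from 0, with marker shapes for the replicate numbers and bars for mean ± SD (n = 3, not drawn for Pygl). Galk1 and Pgm1 are higher in every mitochondria library than in any control library, Galm and Pgm2 lower, and the groups of Galt, Ugp2, Gys1, Gbe1 and Pygl overlap.

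Of the phosphoglucomutase genes, Pgm1 was higher and Pgm2 lower in every mitochondria library than in any control, and neither passed in edgeR. Pgm1 (ENSMUSG00000025791, chromosome 4, 99929414 to 99987294), which encodes the enzyme that interconverts glucose 1-phosphate and glucose 6-phosphate, had 206.6, 212.6 and 214.5 CPM with mitochondria and 165.1, 151.4 and 166.3 CPM in controls. The groups were well apart, at 211.2 ± 4.13 and 160.9 ± 8.29 CPM (SD, n = 3 each). The fitted fold was 1.31 (95% interval 1.21 to 1.43) and the log2 fold change 0.39 ± 0.050 (SE). The adjusted p of edgeR, 0.0661, fell just outside the threshold, and DESeq2 called Pgm1 and Galk1, with adjusted p-values of 9.88e-08 and 6.3e-10, and none of the other members. DESeq2 called 2.82% of all genes, of which the higher ones made up 1.62% of all genes. The first 400 bases of Pgm1 overlap Itgb3bp on the other strand, whose log2 fold change was -0.040. RefSeq lists Pgm2 among older names of Pgm1, and the reverse, so the Ensembl identifiers given here settle which gene is meant.

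Pgm2 (ENSMUSG00000029171, chromosome 5, 64092950 to 64128351), whose product acts mainly on pentose phosphates, had 31.1, 32.6 and 31.4 CPM with mitochondria and 33.4, 35.8 and 34.3 CPM in controls. All mitochondria libraries lay below the controls, at a fitted fold of 0.919 (95% interval 0.833 to 1.01, edgeR adjusted p = 0.441). Of the summed FPKM of Pgm1 and Pgm2, Pgm1 made up 85.5%, 85.3% and 85.8% in the mitochondria libraries and 81.4%, 79.0% and 81.1% in the control libraries. The share was higher in each mitochondria library than in any control. Galk1 and Pgm1 were thus the members higher without overlap, and Galm and Pgm2 those lower without overlap, 2 of 8 in each direction. Over all genes tested, 10.8% were higher and 10.6% lower without overlap. The paralogs of the family did not pass, with fitted folds of 1.12 for Pgm3, which acts on N-acetylglucosamine phosphate, 1.05 for Pgm2l1 and 0.965 for Pgm5, and edgeR adjusted p-values of 0.509, 0.718 and 0.874.

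Ugp2 (ENSMUSG00000001891, minus strand of chromosome 11, 21321138 to 21371201), which joins glucose 1-phosphate and UTP to UDP-glucose, had 313.9, 365.3 and 288.2 CPM with mitochondria and 401.2, 434.2 and 351.5 CPM in controls. The groups overlapped, since mitochondria replicate 2 lay above control replicate 3. Replicate 2 was highest and replicate 3 lowest within each group, and each mitochondria library was below the control of the same number. The fitted fold was 0.815 (95% interval 0.677 to 0.981, edgeR adjusted p = 0.356, and 0.187 with the replicate block). Ugp2 made up 30.7%, 33.4% and 27.9% of the summed FPKM of the 9 members with mitochondria and 40.3%, 43.7% and 36.4% in controls. That sum includes Galk1, chosen for its difference between the groups, so nothing is read from the difference between these shares. The ratio of Pgm1 to Ugp2 on the FPKM scale was 0.692, 0.612 and 0.782 with mitochondria and 0.432, 0.366 and 0.497 in controls, without overlap. It sets a gene already seen to be higher against one seen to be lower in each same-numbered pair. Nothing further is read from it. The summed level of all 9 members was 942.2, 1019 and 972.8 CPM with mitochondria and 932.6, 935.1 and 913.5 CPM in controls. Galk1 is part of this sum too.

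Of 13 listed genes of UDP-sugar use 10 were tested, with 4 above 0 and 6 below and a median log2 fold change of -0.034. Ugdh, which oxidises UDP-glucose to UDP-glucuronate, had 159.0 ± 4.76 CPM with mitochondria and 169.0 ± 3.14 CPM in controls (SD, n = 3 each), a fitted fold of 0.941. B4galt3, a galactosyltransferase of the Golgi, had 51.3 ± 2.34 and 44.5 ± 6.63 CPM (SD, n = 3 each), a fitted fold of 1.15. Neither passed, at edgeR adjusted p-values of 0.431 and 0.483.

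Gys1, which encodes the synthase, and Gbe1 spread more between the libraries of a group than Galk1, Galt and Galm did, and neither passed the test. Gys1 (ENSMUSG00000003865, chromosome 7, 45434844 to 45456619) had 118.1, 158.1 and 170.1 CPM with mitochondria and 95.3, 99.9 and 130.7 CPM in controls. It had the largest fitted fold of the members, 1.37, but also the widest 95% interval, 1.03 to 1.83, and the groups overlapped because mitochondria replicate 1 lay below control replicate 3. Replicate 1 was lowest and replicate 3 highest in each group, and all 3 same-numbered pairs were higher with mitochondria. The edgeR adjusted p was 0.358, and 0.222 with the replicate block. The first 3253 bases of Gys1 overlap Ruvbl2 on the other strand, whose log2 fold change was -0.022. Gys2, the liver form, had 21 counts summed over the mitochondria libraries and 15 over the control libraries, so that Gys1 made up at least 99.6% of the FPKM of the pair in every library.

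Gbe1 (ENSMUSG00000022707, chromosome 16, 70313949 to 70569716), the branching enzyme, had 101.9, 82.2 and 99.3 CPM with mitochondria and 90.4, 74.2 and 84.9 CPM in controls. The groups overlapped, with replicate 2 lowest in each, and all 3 same-numbered pairs were higher with mitochondria. The fitted fold was 1.14 (95% interval 0.949 to 1.36, edgeR adjusted p = 0.515, and 0.226 with the replicate block). The ratio of Gys1 to Gbe1 in FPKM was 1.3, 2.15 and 1.92 with mitochondria and 1.18, 1.5 and 1.72 in controls, overlapping between the groups. Gyg, the glycogenin that primes the chain, had 20.8 ± 0.638 CPM with mitochondria and 21.5 ± 1.0 CPM in controls (SD, n = 3 each), a fitted fold of 0.966 (edgeR adjusted p = 0.798).

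**Figure D3:**
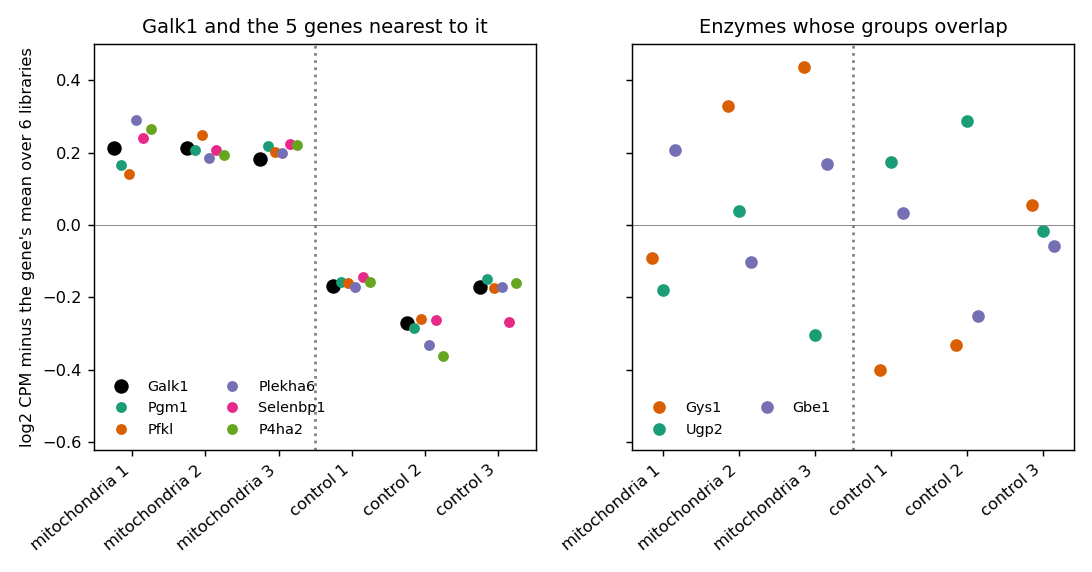
log2 CPM minus each gene's mean over the 6 libraries, 1 point for each library, for Galk1 and the 5 genes nearest to it (left) and for Gys1, Ugp2 and Gbe1 (right). On the left all mitochondria libraries lie above 0 and all controls below. On the right the libraries spread within each group in the same order of replicate numbers, while every mitochondria library is above its same-numbered control for Gys1 and Gbe1 and below it for Ugp2.

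On the breakdown side Pygl (ENSMUSG00000021069, minus strand of chromosome 12, 70190811 to 70231488), the liver form of glycogen phosphorylase, had 0, 0 and 7 counts in the mitochondria libraries and 4, 8 and 8 in the control libraries. Every value lies under a floor of 12 counts per library, or 3 fragments if each gives about 4 counts, which corresponds to 0.164 to 0.183 CPM, so no fold is given, and the gene did not enter the test. In the 2 libraries at 0, that floor allows up to 0.17 and 0.173 CPM. The floor covers counting error only. Pygm, the muscle form, was at or below 0.344 FPKM in all libraries. The brain form Pygb had 153.4, 152.0 and 140.8 CPM with mitochondria and 126.0, 130.9 and 128.5 CPM in controls. It made up 98.5% to 99.4% of the FPKM of the 3 phosphorylases in every library. Its groups did not overlap, and the fitted fold was 1.16 (95% interval 1.07 to 1.25). Pygb did not pass in edgeR, with an adjusted p of 0.24, whereas DESeq2 gave 0.0308.

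Beyond the 9 members, 49 symbols of galactose and glycogen metabolism were listed by role. Of these 48 were in the table, where Gyg1 goes by Gyg, and 35 were tested. edgeR called 0 of them in either direction, with 4 at an unadjusted p under 0.05, limma called 0 and DESeq2 called Pygb. Over all genes tested edgeR called 0.164%, 13.0% had an unadjusted edgeR p under 0.05 and DESeq2 called 2.82%. Of the 35 genes 20 were above 0 and 15 below, with a median log2 fold change of 0.051, against 49.6% above 0 and a median of -0.0016 over all genes tested. Of 10 listed genes of glycogen targeting and quality control only 4 were tested, the rest lying below the FPKM filter. These 4 were all above 0, and edgeR called none of them. Among them was Stbd1, which tethers glycogen to membranes, at 3.83 ± 0.177 CPM with mitochondria and 2.52 ± 0.475 CPM in controls (SD, n = 3 each), a fitted fold of 1.52 with an edgeR adjusted p of 0.301. Ppp1r3b and Ppp1r3c, which bring protein phosphatase 1 to glycogen, had fitted folds of 1.15 and 1.14, and Ppp1r3f, named after its values were seen, 1.6, with control replicate 1 at 3.08 CPM against 7.47 to 12.5 CPM in the other libraries. Slc37a4, the glucose 6-phosphate transporter of the endoplasmic reticulum, had 4.83 ± 0.527 and 6.17 ± 0.682 CPM (SD, n = 3 each), a fitted fold of 0.783 with an edgeR adjusted p of 0.395. The remaining lists gave medians of 0.079 for 6 other Leloir and galactose genes, 0.074 for 3 mutases, -0.038 for 3 other synthesis genes, 0.015 for 7 other breakdown genes and -0.16 for 2 genes of glucose 6-phosphate release.

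**Figure D4:**
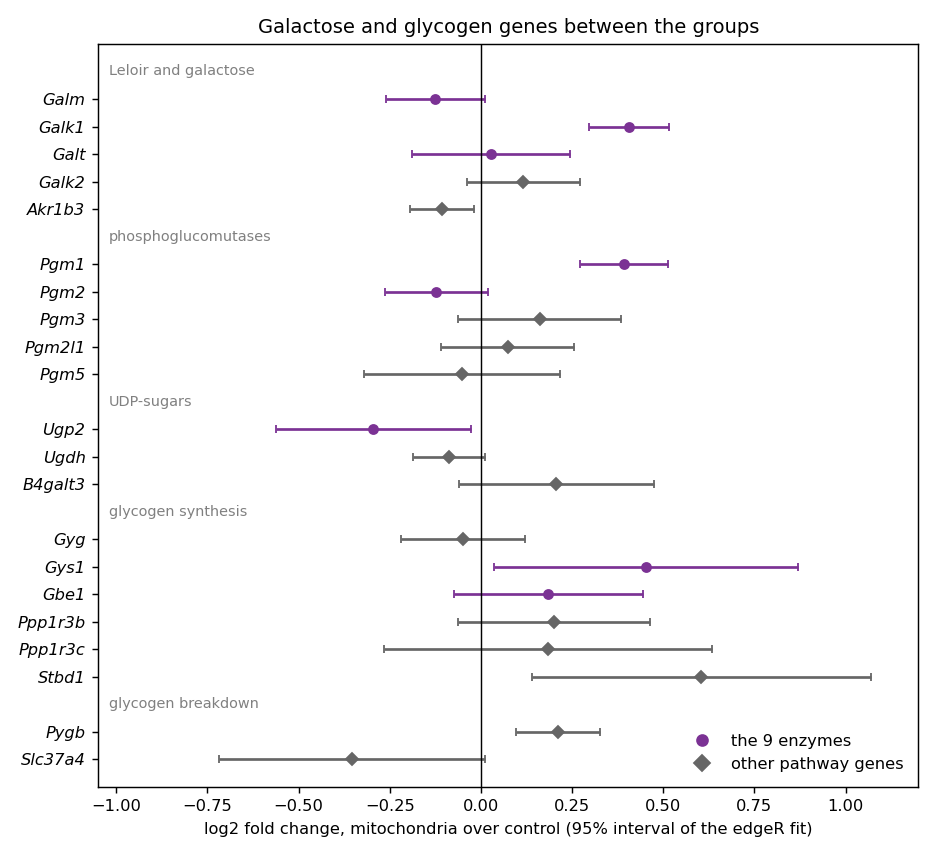
Fitted log2 fold changes, mitochondria over control, with the 95% interval of the edgeR fit, grouped by role. Circles are 8 of the 9 enzymes and diamonds are some of the other pathway genes. Ppp1r3f, Gsk3b and Uxs1 are not drawn. Galk1 and Pgm1 have narrow intervals near 0.4, that of Gys1 is wide, and Ugp2, Galm and Pgm2 lie below 0.

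The gene whose pattern over the libraries was most like that of Galk1 was Pgm1. Likeness was the root mean square difference in log2 CPM after centring each gene on its mean over the 6 libraries, and Pgm1 was nearest of 10636 protein-coding genes, at 0.028. It was followed by Pfkl, the liver form of phosphofructokinase, at 0.035, Plekha6 at 0.041, Selenbp1, a methanethiol oxidase, at 0.046 and P4ha2, a collagen prolyl hydroxylase, at 0.047. These 5 were chosen for their likeness to Galk1, itself chosen for its difference between the groups, so their own differences follow from that choice and support nothing. Each was higher in every mitochondria library than in any control. Their log2 fold changes were 0.39, 0.39, 0.45, 0.45 and 0.45, and edgeR called none of them, with adjusted p-values of 0.0661, 0.0612, 0.187, 0.0546 and 0.128, while DESeq2 called all 5. Among the other members and listed pathway genes Pygb was the nearest at rank 246, while Gbe1 was at rank 1204, Galt at 3482, Gys1 at 4077, Galm at 7302, Pgm2 at 7371 and Ugp2 at 9765.

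The acinar transcripts moved with the groups, as given above, and their part in these values was not tested. Of the 10 acinar markers 7 were tested and edgeR called all 7 lower, among 13 genes called lower of the 12774 tested. Without the acinar and hepatocyte markers in the fit the log2 fold change of Galk1 was 0.41 and its edgeR adjusted p 0.0715. That fit only leaves out the marker genes and keeps the counts of Galk1 as they were. Its fold was therefore bound to stay about the same, and nothing is read from it. The genes of the liver isoforms, Pygl and Gys2, had at most 15 counts in any library.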

How the data were processed

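RNA sequencing libraries of bEnd.3 cells, 3 with added mitochondria and 3 controls, were prepared from mRNA with a kit that keeps strand, as the labels' protocols say. The submitters' processing notes name the build GRCm38, StringTie 2.1.6, HISAT2 2.2.1 and cutadapt 1.9, besides edgeR and DESeq2, without roles. Which strand setting was used in counting is not given in the sources, so reads of genes that overlap on opposite strands cannot be told apart. The authors deposited FPKM values, with 0.0001 wherever the count is 0, and estimated counts, which are whole numbers. Of counts from 1 to 20, 36.6% are multiples of 4, against 25% if even, so a fragment probably gives about 4 counts, and depth in fragments is below the totals given. All 9 members have the same start and end in GENCODE M21 as in the deposited table.

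Groups came from the treatment labels. Counts were tested in R 4.3.3 with edgeR 4.0.16 (quasi-likelihood F-test, TMM factors 0.996 to 1.007, no covariate), on 12774 genes with a mean FPKM of at least 1, with Benjamini-Hochberg adjusted p under 0.05 called. SEs and 95% intervals come from the F statistic. Alternatives used DESeq2 1.42.0, limma 3.58.1 on log2(FPKM + 1) or log2(FPKM + 0.1), which understates the change of low genes, other scalings and filters, the replicate block and each library left out. The fits of all 3 tools were tested on simulated counts, with limma there on log2(CPM + 1) in place of FPKM. The replicate block was not part of that simulation.

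Members and lists were chosen with earlier results of these data known. Named were all members, paralogs and enzymes of the same steps, the 3 other pathway genes with the smallest p in each direction, overlapping genes and the 5 genes most like Galk1, and some genes this covers are not reported here. Deviations from group means correlated between same-numbered libraries at 0.155, 0.101 and 0.231, and between differently numbered ones at -0.216 to 0.084. The deviations are centred within each group, so these values are not independent of each other. The labels do not say that replicate numbers mark pairs. Any pairing therefore comes from the data, and blocked values stand where they change a call.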

Additional observations from a re-analysis of the deposited data

How the results depend on the processing

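The log2 fold change of Galk1 stayed at 0.40 to 0.42 under every setting that kept all 6 libraries, but its call held under only 4 of 16 alternatives. It was kept with DESeq2's size factors, library totals, DESeq2 and limma on log2(FPKM + 0.1). It was lost with limma on log2(FPKM + 1) (0.41, adjusted p = 0.0521), a filter at a mean of 5 FPKM (0.41, 0.0589), no filter (0.40, 0.0775), counts divided by 4 (0.41, 0.0515), the replicate block (0.41, 0.186) and without acinar and hepatocyte markers (0.41, 0.0715), and without any 1 library (0.37 to 0.43). The number of members called was thus 0 in each of these, with 5 of 8 at an unadjusted edgeR p under 0.05 under the block, 0 with any library left out, and 2 with DESeq2, which also called 1 other pathway gene. In edgeR, limma and every left-out library 0 other pathway genes were called. Over all genes 21 were called, against 360 with DESeq2, 8 with the filter at 5 FPKM, 10 without the markers, 0 under the replicate block (2153 at an unadjusted p under 0.05) and 1 to 27 with a library left out, 1 without control replicate 1 and 12 without control replicate 3. With a library left out, direction changed for the member Galt (-0.0030 to 0.073, negative without mitochondria replicate 1) and for no other tested member. Among the other pathway genes it changed for Pgm5 (-0.10 to 0.015, positive without mitochondria replicate 1, at 0.013, or control replicate 2). It also changed for Ppp1r3c (-0.0033 to 0.32, negative without mitochondria replicate 2). The cause of these changes was not tested. Levels per longest transcript, chosen after seeing the data, gave Galk1 73.2% and 69.1% of the galactokinase pair and Pgm1 86.2% and 81.4% of the mutase pair in the mitochondria and control libraries. Pygl, Gys2 and Pygm lay below the FPKM filter and entered only the fit without a filter.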

Other observations

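The deposited annotation gives a wider view of the same chemistry, chosen after the data were seen. Of 32 genes under the KEGG term for galactose metabolism 21 were tested, and of the 15 outside the 9 members 11 were above 0 (median log2 fold change 0.061), and edgeR called 0, with 7 at an unadjusted p under 0.05. DESeq2 called 5 of the 15, all hexokinase or phosphofructokinase genes that the term shares with glycolysis, namely Hk1, Hk2, Pfkl, Pfkm and Pfkp. Of 10 tested genes under starch and sucrose metabolism outside the members 9 were above 0, with a median of 0.082. edgeR called 0 of these, with 3 at an unadjusted p under 0.05, and DESeq2 called Hk1, Hk2 and Pygb. Over all genes tested 49.6% were above 0, 13.0% had an unadjusted edgeR p under 0.05, edgeR called 0.164% and DESeq2 2.82%.

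Gsk3b, a kinase that inhibits glycogen synthase, stood at either of a pair of levels that did not follow the groups. It had 226.5, 100.3 and 230.4 CPM in the mitochondria libraries and 102.1, 104.5 and 245.0 CPM in the control libraries, high in both replicates 3, low in both replicates 2, and in replicate 1 high with mitochondria and low in the control. Uxs1, which makes UDP-xylose, had 45.3, 63.1 and 40.6 CPM with mitochondria and 58.4, 42.2 and 42.3 CPM in controls, with the highest library in a different replicate of each group.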
